A study of Pinus pinaster with 21 samples.

Results

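Small RNAs were counted in roots of Pinus pinaster, the maritime pine, 24 h and 2 h after irrigation with 3 mM ammonium, and those of the later time were set against those of the earlier one. The comparison rests on 5 of the 21 libraries of the series: the 24 h libraries of experiments 1 and 3 and the 2 h libraries of experiments 1, 2 and 3. The members described are the 796 identifiers, out of 32711, that have a count above 0 in all 5 of these libraries. Each identifier stands for a small RNA and carries a serial label without a name, a sequence or a genome position, so known roles cannot be given for single identifiers and the identity of the tissue cannot be checked from root markers.

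All seedlings were 1 month old, of the Segura-Alcaraz provenance, and had been kept for 3 days on nutrient solution that lacked nitrogen before the irrigation, so every group shares that nitrogen-free period. The 24 h and 2 h groups at 3 mM ammonium received 80 mL of 3 mM NH4Cl. The 24 h and 2 h groups at 0.1 mM received 80 mL of 0.1 mM NH4Cl, those of water received 80 mL of water, and roots taken before irrigation form the seventh group. Each library pooled the roots of 10 seedlings, and the whole experiment was run 3 times, which gives each library its replicate number. Such a pool does not show variation between plants, and in whole roots fewer cells of a type cannot be told apart from less RNA per cell.

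Plant microRNAs are short RNAs cut by Dicer-like enzymes from hairpin precursors and loaded into ARGONAUTE proteins, which they guide to matching messenger RNAs for cleavage or translational repression. Roots also hold small interfering RNAs made from double-stranded RNA, and some microRNAs are known from flowering plants to adjust nutrient transporters, copper proteins and root branching when nutrient supply changes. Ammonium is the form of nitrogen that many conifers take up most readily, and roots assimilate it through glutamine synthetase and glutamate synthase. Setting 24 h against 2 h within the higher dose asks which small RNAs differ between an early and a later time after the supply.

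The library totals were 9406743 and 7783930 counts at 24 h, against 7720980, 8095647 and 8183070 counts at 2 h. The third 24 h library, replicate 2, had 1180505 counts and listed 18.0% of the widely listed identifiers (those with a count in 10 or more of the other libraries), against 71.7% and 76.1% in the 24 h libraries used and 70.4% to 78.0% in those at 2 h, and it is described apart below. The smallest count above 0 in the whole table is 5, and 86.6% of its cells are 0, so a 0 is read as not listed in that library and no fold is given against it. The 5 libraries list 11970 identifiers between them. Of these, 7304 are listed by 1 of the 5 libraries, 2057 by exactly 2, 1084 by exactly 3, 729 by exactly 4 and 796 by all 5. The 796 carry 61.1% and 65.3% of the library total at 24 h, against 66.0%, 68.7% and 65.3% at 2 h (exact permutation p = 0.2, two-sided, where 0.1 is the smallest p that 2 libraries against 3 allow). An identifier that was fully absent at one of the times cannot be among the 796.

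The counts were concentrated in a few small RNAs at both times. The 10 most abundant identifiers held 53.3% and 47.0% of the counts of the 796 at 24 h, against 52.2%, 48.8% and 47.0% at 2 h. The groups overlap, and the means differ by 0.82 percentage points (exact permutation p = 0.7, two-sided). MIR_828, the most abundant identifier, had a share of 15.5% in both 24 h libraries, against 16.1%, 21.0% and 18.3% at 2 h. Its share was thus lower in both 24 h libraries than in any 2 h library, by 2.94 points on average (exact permutation p = 0.2, two-sided). In counts per 1000000 over the 796 identifiers with TMM factors, which correct for library composition and are called CPM below, the order of MIR_828 was not kept, with 184512 and 143078 CPM at 24 h, against 175727, 193415 and 166251 CPM at 2 h. The TMM factor of 24 h replicate 1 was 0.841, the lowest of the 5.

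**Figure D1:**
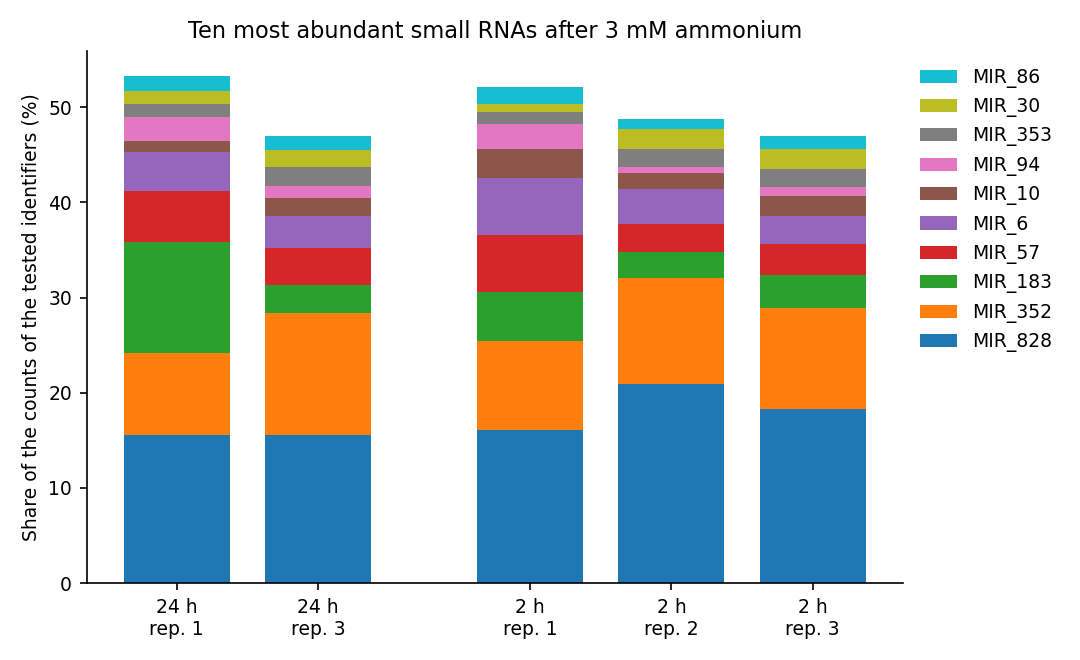
Share of the counts of 796 identifiers (%, y axis) held by each of the 10 most abundant identifiers, stacked, in the 24 h libraries and the 2 h libraries at 3 mM ammonium (1 bar a library). MIR_183 takes 11.6% in 24 h replicate 1 and between 2.75% and 5.14% in the other 4 libraries.

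MIR_352, the second most abundant, had 102988 and 117904 CPM at 24 h, against 101655, 102607 and 95969 CPM at 2 h. Both 24 h values lay above the 2 h values in CPM, but as a share of the counts 24 h replicate 1 lay below all 2 h libraries. The log2 difference of MIR_352 within experiments was 0.16 (SE 0.27, 95% interval -0.57 to 0.89). MIR_183, the third, had 138316 and 27776 CPM at 24 h, against 56095, 25381 and 31784 CPM at 2 h. It was 1.30 log2 units higher at 24 h in experiment 1 and lay at -0.19 in experiment 3, so its highest value belongs to a single library. Experiment 1 also had the highest MIR_183 value at 2 h. MIR_10 had its single high value at 2 h, with 14693 and 17658 CPM at 24 h, against 33394, 15917 and 18682 CPM at 2 h, and differences of -1.18 in experiment 1 and -0.08 in experiment 3.

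The other 6 of the 10 most abundant differed by at most 0.25 log2 units. MIR_57 differed by 0.11 log2 units (interval -0.54 to 0.77), MIR_6 by -0.10 (-0.87 to 0.66) and MIR_94 by 0.21 (-0.39 to 0.80). MIR_353 differed by 0.14 (-0.43 to 0.72), MIR_30 by 0.25 (-0.57 to 1.08) and MIR_86 by 0.07 (-0.51 to 0.64). MIR_94 was high in experiment 1 at both times, with 29864 and 11200 CPM at 24 h, against 28816, 5597 and 8703 CPM at 2 h. Its level thus went with the experiment more than with the time.

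Each of the 796 identifiers was tested with edgeR's quasi-likelihood method with the experiment as a block, and p was adjusted by Benjamini-Hochberg over the 796. Experiment 2 has no 24 h library in this test, so the difference of each identifier is in effect the mean of its differences within experiments 1 and 3. The test called 0 of 796 identifiers (percent called 0) at an adjusted p under 0.05, and 30 (3.77%) stood at an unadjusted p under 0.05, with 16 higher and 14 lower at 24 h. The smallest adjusted p was 0.908. DESeq2 called 3 identifiers, MIR_320, MIR_804 and MIR_91, and limma called 0, with 28 at an unadjusted p under 0.05 in each.

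Most differences were small. The median absolute log2 difference was 0.16 with a median standard error of 0.19, and for 638 of the 796 the whole 95% interval was inside 1 log2 unit either side of 0. The block leaves 1 residual degree of freedom for each identifier. The standard errors and intervals given here and below for this fit therefore draw mostly on a spread pooled across identifiers. In 9 of the 796 (1.13%) the estimate itself was beyond 1 log2 unit, with 5 higher and 4 lower at 24 h. With TMM factors 423 identifiers (53.1%) were higher and 373 lower at 24 h. With plain CPM 326 (41.0%) were higher and 470 lower, so the split between the directions depends on the scaling. The 24 h values lay above every 2 h value for 71 identifiers (8.92%) and below every 2 h value for 77 (9.67%), while plain CPM gives 21 above and 83 below. Of the 10 ways to divide these libraries into groups of the same sizes, 1 gives each of these orders. The shares of 8.92% and 9.67% are near that, so separated groups alone do not mark a difference.

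The median difference stood near 0 in each class of abundance. Of the 121 identifiers with a mean of at least 1000 CPM, 68 were higher and 53 lower at 24 h, with a median log2 difference of 0.04. Of the 345 between 100 and 1000 CPM, 177 were higher and 168 lower, with a median of 0.00. Of the 330 under 100 CPM, 178 were higher and 152 lower, with a median of 0.04. Over all 796 the median was 0.02. The edgeR test called 0 in each class, and 5, 12 and 13 identifiers, from the most to the least abundant class, had an unadjusted p under 0.05. The class of at least 1000 CPM held 87.8% of the counts at 24 h, against 86.9% at 2 h.

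The identifiers named next have the smallest p or the largest separated differences, and none of them passed the test in edgeR (adjusted p = 0.908 for each). Their intervals are not adjusted for this choice, and choosing by a small p favours similar differences in experiment 1 and experiment 3. MIR_91, ranked 29 by mean CPM, had 9057 and 7523 CPM at 24 h, against 5305, 3336 and 2307 CPM at 2 h. Both 24 h libraries lay above all 2 h libraries, and the log2 difference was 1.24 (SE 0.29, interval 0.46 to 2.02), or 2.36-fold. The difference was 0.77 in experiment 1 and 1.70 in experiment 3, and DESeq2 called it (adjusted p = 0.00763).

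MIR_1376 had 143 and 144 CPM at 24 h, against 77.1, 137 and 75.9 CPM at 2 h. The 24 h values exceeded those of 2 h in experiments 1 and 3 by similar amounts (0.89 and 0.92 log2 units), while the 2 h library of experiment 2 stood close to them. The groups overlap with plain CPM. The log2 difference of MIR_1376 was 0.90 (SE 0.17, interval 0.46 to 1.35).

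MIR_1792 had 44.3 and 45.7 CPM at 24 h, against 25.9, 24.9 and 23.6 CPM at 2 h. Both groups were narrow and did not overlap, and the difference was 0.86 log2 units (SE 0.20, interval 0.32 to 1.40). MIR_1870 had 65.0 and 56.0 CPM at 24 h, against 37.7, 51.9 and 36.0 CPM at 2 h, a difference of 0.71 (SE 0.18, interval 0.22 to 1.20). Both identifiers were already known from earlier results of these data to be higher at 24 h over all irrigations, so their values here are no independent support.

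MIR_874 had 60.8 and 57.4 CPM at 24 h, against 45.8, 34.3 and 27.9 CPM at 2 h. MIR_482 had 35.0 and 29.5 CPM at 24 h, against 28.1, 24.5 and 13.6 CPM at 2 h. Both differed by 0.72 log2 units, with intervals of 0.09 to 1.36 for MIR_874 and -0.03 to 1.47 for MIR_482, and in both the difference was larger in experiment 3 (1.04 and 1.11) than in experiment 1 (0.41 and 0.32). MIR_1608 had 82.6 and 308 CPM at 24 h, against 51.2, 182 and 140 CPM at 2 h. Its groups overlap because experiment 1 was low at both times, and within experiments it was higher at 24 h by 0.69 and 1.13 log2 units. Without the block the direction rests on single libraries, since the difference lay at -0.44 without 24 h replicate 3 and at 0.00 without 2 h replicate 1.

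Among identifiers lower at 24 h, MIR_1111 had 549 and 562 CPM at 24 h, against 941, 852 and 1013 CPM at 2 h. The groups did not overlap, and the difference was -0.81 log2 units (SE 0.17, interval -1.26 to -0.36). MIR_4969 had 135 and 117 CPM at 24 h, against 223, 165 and 237 CPM at 2 h, a difference of -0.87 (SE 0.18, interval -1.35 to -0.39). MIR_1069 had 1371 and 746 CPM at 24 h, against 2015, 2125 and 2304 CPM at 2 h. Its 2 h values lay close together and its 24 h values did not, and the difference was -1.09 (SE 0.31, interval -1.92 to -0.26), with -0.56 in experiment 1 and -1.63 in experiment 3.

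MIR_1410 had 37.2 and 55.6 CPM at 24 h, against 92.5, 68.2 and 83.9 CPM at 2 h, and MIR_5042 had 49.2 and 67.2 CPM at 24 h, against 79.0, 71.5 and 118 CPM at 2 h. MIR_911 had 28.6 and 17.4 CPM at 24 h, against 33.4, 31.2 and 51.3 CPM at 2 h. In each of these 3 the 24 h values lay below all 2 h values, with log2 differences of -0.95, -0.74 and -0.89. The groups of MIR_5042 overlap with plain CPM. The value of MIR_911 comes mostly from experiment 3 (-1.56, against -0.23 in experiment 1), and its interval of -1.89 to 0.11 includes 0. MIR_1410 lay at -1.31 in experiment 1 and -0.59 in experiment 3, and MIR_5042 at -0.68 and -0.81. MIR_844 had 633 and 608 CPM at 24 h, against 1795, 1465 and 691 CPM at 2 h, a difference of -0.84 (SE 0.36, interval -1.80 to 0.11) that was -1.50 in experiment 1 and -0.19 in experiment 3.

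MIR_804, with the smallest p of all, had 26.7 and 65.8 CPM at 24 h, against 55.2, 104 and 258 CPM at 2 h. The groups overlap, since experiment 3 was high at both times, and within experiments the differences were -1.05 and -1.97 log2 units. DESeq2 called it (-1.53, adjusted p = 0.00538). MIR_3847 had 95.2 and 158 CPM at 24 h, against 148, 200 and 285 CPM at 2 h, with the same arrangement. MIR_320 had 8.90 and 19.9 CPM at 24 h, against 124, 5.14 and 62.7 CPM at 2 h. Its lowest value is the 2 h library of experiment 2, which has no 24 h partner in the test, so the difference of -2.72 (SE 0.55, interval -4.20 to -1.24) leaves that library unused. DESeq2 called it as well (-2.70, adjusted p = 5.43e-05), while in the fit of 17 libraries described below it lay at 0.27 without 2 h replicate 1. On the scale of that fit MIR_320 varied widely within single 2 h groups. It ranged from 2.43 to 1166 CPM in the 3 water libraries and from 3.36 to 199 CPM in the 3 libraries at 0.1 mM. At 24 h the ranges were narrower, with 6.66 to 15.6 CPM after water and 5.66 to 8.26 CPM at 0.1 mM.

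**Figure D2:**
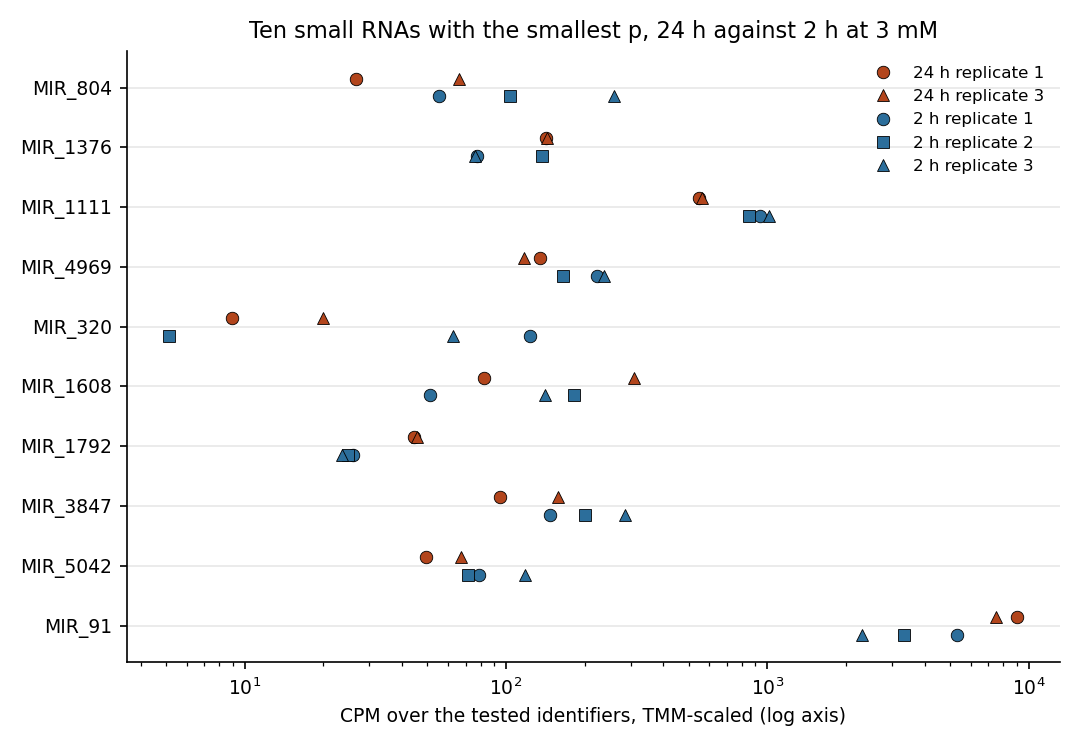
CPM over 796 identifiers with TMM factors (x axis, log scale) of the 10 identifiers with the smallest p, with 24 h libraries in red-brown above 2 h libraries in blue. Symbols mark the experiment. MIR_1792, MIR_1111, MIR_4969, MIR_1376, MIR_5042 and MIR_91 show separate groups, and the other 4 overlap. MIR_1376 and MIR_5042 overlap too when plain CPM is used.

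The differences of the 2 experiments with both times were nearly unrelated across identifiers. They had the same sign for 404 of 796, since 215 (27%) were higher at 24 h in both experiments and 189 (23.7%) were lower in both. In 209 the difference was positive in experiment 1 and negative in experiment 3, and in 183 it was the other way round. Across the 796 identifiers Pearson's r was 0.03 and Spearman's rho 0.04, a description over identifiers that share the same 4 libraries and are not independent. The differences had a standard deviation of 0.53 log2 units in experiment 1 and 0.43 in experiment 3. Between libraries of the same time it was 0.54 at 24 h and 0.45 to 0.59 at 2 h, but these pairs come from different experiments and so also hold the differences between experiments, and they are no measure of the spread within one.

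Several of the widest gaps between the experiments came from single libraries. MIR_4743 had 8160 and 7436 CPM at 24 h, against 60.4, 8994 and 6713 CPM at 2 h. The low value of the 2 h library of experiment 1 sets its difference of 3.61 log2 units (SE 1.66, interval -0.85 to 8.07), which was 7.08 in experiment 1 and 0.15 in experiment 3. MIR_743 had 8.48 and 134 CPM at 24 h, against 111, 106 and 113 CPM at 2 h, so 24 h replicate 1 was low by itself. Without 24 h replicate 3 and without the block, edgeR called MIR_743 lower at 24 h (adjusted p = 0.0151, -3.71 log2 units), from 24 h replicate 1 alone, and without 24 h replicate 1 it lay at 0.28.

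MIR_4510 had 407 and 374 CPM at 24 h, against 359, 529 and 36.0 CPM at 2 h, with the single low value in 2 h replicate 3. MIR_208 had 1814 and 6138 CPM at 24 h, against 8871, 6577 and 934 CPM at 2 h, and MIR_60 had 15854 and 4421 CPM at 24 h, against 7598, 11483 and 14512 CPM at 2 h. Both had opposite signs in the experiments, with -2.29 in experiment 1 and 2.72 in experiment 3 for MIR_208, and 1.06 and -1.71 for MIR_60.

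**Figure D3:**
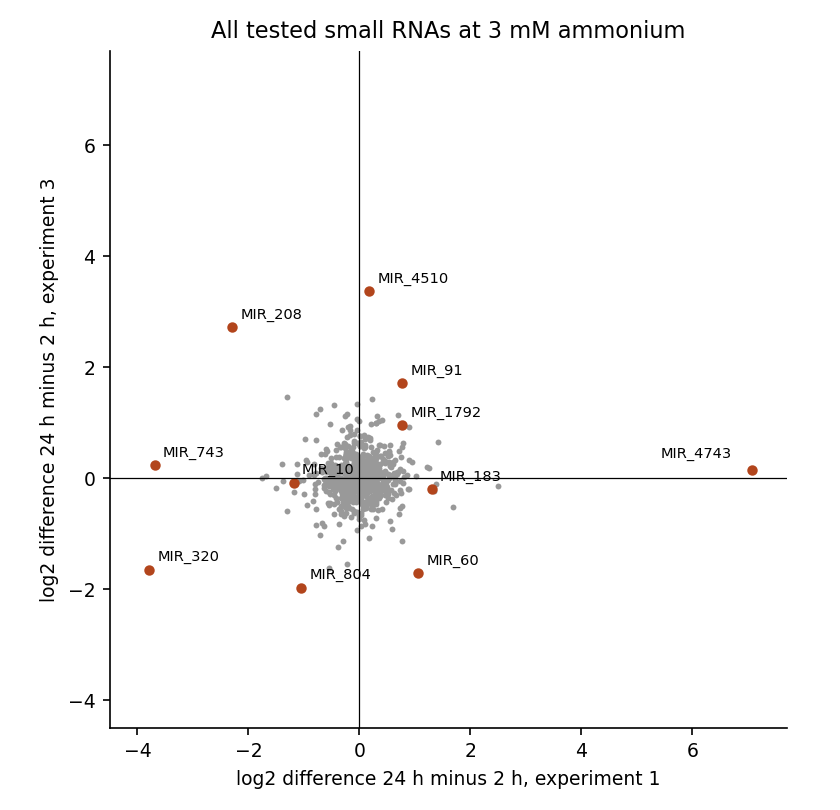
log2 difference 24 h minus 2 h in experiment 1 (x axis) and in experiment 3 (y axis) for each of 796 identifiers at 3 mM ammonium (1 point each), with named identifiers in red-brown. The cloud has no slope (r = 0.03), and MIR_4743, MIR_743, MIR_4510 and MIR_208 lie far from it along an axis or in opposite directions.

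The 24 h library of experiment 2 was set against the 2 h library of the same experiment over the 136 identifiers (17.1% of the 796) that it also lists, scaled with TMM factors over these 136. They hold 29.7% of its counts. For 124 of the 136 the difference lay within 1 log2 unit of 0, as it did for 127 in experiment 1 and 131 in experiment 3. In 8 identifiers it was below -3, down to -10.19, and these are abundant elsewhere. MIR_57 had 140 counts in that library, against 163507 counts in its 2 h partner. MIR_10 had 209 counts, against 95990, and MIR_353 had 387, against 109260. The 5 tested libraries held at least 65788 counts of each of these 3. Of the 10 most abundant identifiers this library lists 3, and MIR_828, MIR_352 and MIR_183 are not listed by it.

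Of the 136 identifiers, 66 had the same sign in experiments 1 and 3, and in 35 of these experiment 2 had it too. This library lists 6 of the 30 identifiers with an unadjusted p under 0.05, and experiment 2 had the direction of the test in 3 of these 6. MIR_804 lay at -0.97 log2 units in experiment 2, so it was lower at 24 h in all 3 experiments with TMM factors but not with plain scaling. MIR_1870 was higher by 0.37 and MIR_1352 by 0.35. MIR_91 lay at -0.69, against the direction of the other experiments, and with 24 h replicate 2 added to the fit its difference was 0.58 and no identifier passed in edgeR (0 of 136, with 10 at an unadjusted p under 0.05). Plain scaling over the 136 turns the sign of 55 of the experiment 2 differences, MIR_804 and MIR_91 among them (0.41 and 0.69). The median experiment 2 difference is 1.40 with plain scaling and 0.01 with TMM factors.

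**Figure D4:**
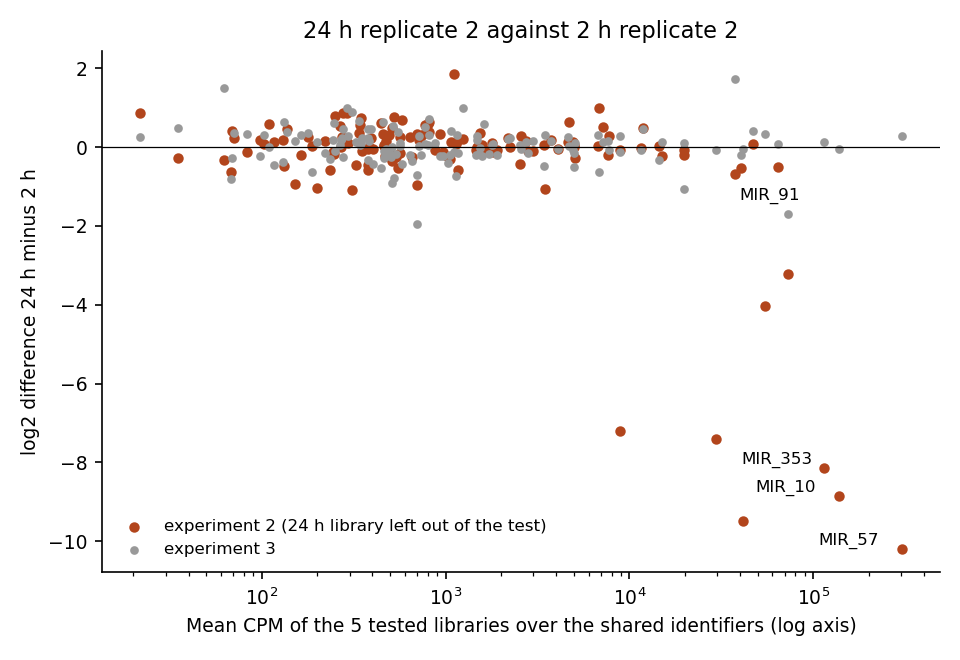
log2 difference 24 h minus 2 h (y axis) against the mean CPM of the 5 tested libraries over 136 identifiers (x axis, log scale), for experiment 2 in red-brown and experiment 3 in grey. With the TMM factors used here most points of experiment 2 lie near 0, and 8 lie below -3, with MIR_57 lowest at -10.19. With plain scaling only 17 of the 136 lie within 1 log2 unit of 0 in experiment 2.

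The time difference at 3 mM was then set against that after water and at 0.1 mM, to ask whether it belongs to the higher dose. The interaction with water was tested on the 504 identifiers that the 5 libraries at 3 mM and the 6 water libraries all list. The edgeR test with the experiment as a block called 0 of 504 (percent called 0), with 18 (3.57%) at an unadjusted p under 0.05 and a smallest adjusted p of 0.562, while DESeq2 and limma called 0 each. Without 3 mM 24 h replicate 3, edgeR called MIR_743 here (adjusted p = 0.00282, -3.59 log2 units). For 0.1 mM, with 2 libraries at 24 h and 3 at 2 h, it called 0 of 551 (percent called 0), with 44 (7.99%) at an unadjusted p under 0.05 and a smallest adjusted p of 0.358. DESeq2 called 1 there, MIR_1205, and limma 0.

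MIR_1251 had the smallest p against water. On the scale of these 11 libraries it stood at 219 and 253 CPM at 24 h, against 148, 174 and 206 CPM at 2 h after 3 mM ammonium, and at 139, 202 and 190 CPM at 24 h, against 170, 271 and 279 CPM at 2 h after water. The time difference was 0.50 log2 units at 3 mM and -0.42 after water, an interaction of 0.93 (SE 0.21, interval 0.46 to 1.39, edgeR adjusted p = 0.562). MIR_4106 followed with an interaction of 0.83 (SE 0.20) and MIR_5533 with 0.94 (SE 0.26), both with the same adjusted p in edgeR.

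Against 0.1 mM, MIR_1205 had the smallest p, and here the lower dose carried the difference. It stood at 194 and 403 CPM at 24 h, against 157, 141 and 407 CPM at 2 h after 3 mM ammonium. After 0.1 mM it stood at 138 and 197 CPM at 24 h, against 318, 334 and 608 CPM at 2 h. The time difference was 0.28 at 3 mM and -1.47 at 0.1 mM, an interaction of 1.75 (SE 0.30, interval 1.04 to 2.46, edgeR adjusted p = 0.358). Without 3 mM 2 h replicate 3, edgeR called MIR_1205 and MIR_844 in this interaction (adjusted p = 0.0346 for both), and without 3 mM 24 h replicate 3 it called MIR_743. MIR_5125 had an interaction of -0.76 (SE 0.17) and MIR_4650 one of -0.80 (SE 0.20), and edgeR gave each an adjusted p of 0.568.

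A single fit over the 17 libraries that list at least 50% of the widely listed identifiers, on the 416 identifiers they share, estimates the spread from more libraries. At 3 mM it called 0 of 416 (percent called 0), with 17 (4.09%) at an unadjusted p under 0.05, and for 376 of the 416 the whole interval was inside 1 log2 unit either side of 0. MIR_1792 had the smallest p, with a time difference of 0.79 (SE 0.16, interval 0.43 to 1.14, edgeR adjusted p = 0.126). In the same fit it lay at 0.71 (interval 0.36 to 1.07) at 0.1 mM and at 0.48 (0.17 to 0.79) after water. Before irrigation, in the single library of that group that enters the fit, it stood at 36.9 CPM of the shared counts, then at 31.6 ± 1.96 CPM (SD, n = 3) 2 h and at 57.0 ± 1.54 CPM (SD, n = 2) 24 h after 3 mM ammonium.

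MIR_1870 lay at 0.63 (interval 0.23 to 1.04) at 3 mM, at 0.60 (0.20 to 1.01) at 0.1 mM and at 0.50 (0.14 to 0.85) after water. In the separate fit of the 10 libraries at 3 mM and 0.1 mM, which gives time differences of 0.64 at both doses for MIR_1870, the difference between the doses was 0.00 (interval -0.50 to 0.50). For MIR_1792 that fit gives 0.77 at 3 mM and 0.76 at 0.1 mM, a difference of 0.01 (interval -0.53 to 0.56). These intervals leave room for a difference between the doses of up to about the size of the time difference itself. MIR_1608 lay at 0.78 at 3 mM, 0.40 at 0.1 mM and 0.42 after water. MIR_1376 lay at 0.74 (interval 0.22 to 1.26) at 3 mM, at 0.32 (-0.20 to 0.84) at 0.1 mM and at -0.15 (-0.60 to 0.31) after water, with an interaction against water of 0.92 (SE 0.34, edgeR adjusted p = 0.884). On the scale of this fit MIR_183 had 174767 and 35357 CPM at 24 h after 3 mM ammonium, against 73102, 31669 and 40346 CPM at 2 h. The libraries of the other irrigations and of the time before irrigation lay between 23554 and 64749 CPM, so the value of 24 h replicate 1 was the highest of the 17.

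**Figure D5:**
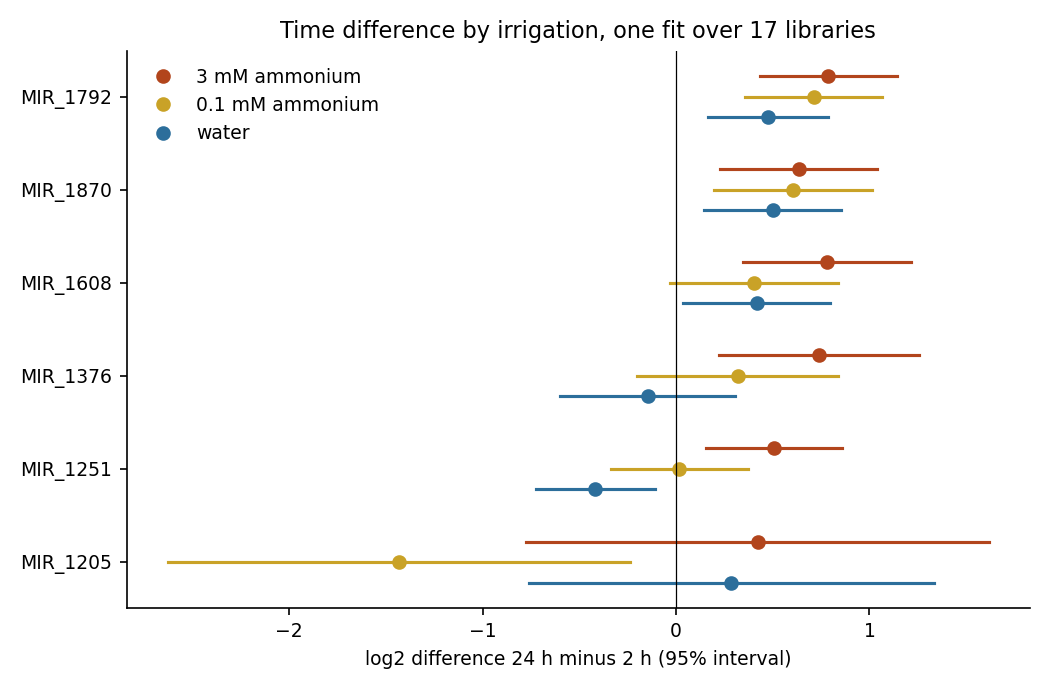
log2 difference 24 h minus 2 h (x axis) with its 95% interval at 3 mM ammonium, 0.1 mM ammonium and after water, from 1 fit over 17 libraries, for 6 identifiers. MIR_1792 and MIR_1870 lie above 0 with their intervals under all 3 irrigations, and MIR_1251 lies above 0 at 3 mM and below 0 after water.

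Across the 416 shared identifiers the time difference at 3 mM, from its own libraries, had a Pearson's r of 0.05 with that after water and of 0.09 with that at 0.1 mM, while those of 0.1 mM and water had an r of 0.21. These are descriptions over identifiers, and the irrigations share experiments. Of the 416, the time difference was positive under all 3 irrigations in 57 and negative under all 3 in 58. In 133 the sign at 3 mM was opposite to that of both others. Unrelated signs also give such patterns, and the counts were not tested, so they are not read as shared or dose-bound responses.

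Some identifiers differ in whether they are listed. Both 24 h libraries and no 2 h library list 170 identifiers, which is 8.26% of the 2057 that exactly 2 of the 5 libraries list. All 3 libraries of 2 h and neither 24 h library list 111, which is 10.2% of the 1084 that exactly 3 list. Most identifiers with so few listings thus do not follow the time, and the counts are not read as a difference between the times. Most have low counts, with a median of 70.3 counts per listing library in the 24 h set and of 115 in the 2 h set. The 24 h library of experiment 2 lists 19 of the 170, and it also lists 18 of the 111. MIR_13691 had 3741 and 268681 counts at 24 h and is not listed at 2 h, and MIR_12279 had 36615 and 23003 counts. MIR_12207, with 5252 and 9751 counts, is the one among the 6 most abundant of the 24 h set that 24 h replicate 2 lists too, with 6358 counts. MIR_3897 had 7922, 8541 and 13471 counts at 2 h and is not listed at 24 h, and 13 of the other 15 libraries of the series list it. These identifiers were chosen after their values were seen, and no test was run on whether an identifier is listed.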

How the data were processed

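The values the authors deposited are raw counts (whole numbers) of each identifier in 21 libraries. Per the labels' protocols, inserts of 18 to 30 bp were cut from gels for TruSeq small RNA libraries, read single-end over 50 bp. The submitters' processing notes name bcl2fastq and edgeR. Aligner, caller, build and filters: not given in the sources used here. Identifiers with a count above 0 in all 5 libraries were tested in edgeR 4.0.16 (R 4.3.3) with TMM factors and the experiment as a block. Log2 differences, SE and 95% intervals come from limma 3.58.1 on log2 CPM (prior count 0.5). DESeq2 1.42.0, RLE factors, plain CPM, a mean CPM of at least 100, all identifiers listed by at least 1 library, no block, left-out libraries and a fit of 17 libraries were alternatives. Labels number the independent experiments; on shared identifiers, deviations from group means correlated at 0.254 within experiments (35 pairs) and -0.123 between them (71 pairs), and at 0.204 and 0.312 for the pairs at 3 mM. Such deviations cancel out within a group, so the negative value partly follows from the positive one, and these values are not independent. The 5 libraries differed from each other beyond counting error (chi-square per degree of freedom at least 180.1). Named identifiers are the 10 with the smallest p (none passed), the 10 most abundant, the 5 largest separated differences each way and the 5 widest gaps between experiments (mean CPM of at least 10), the 3 with the smallest p in each interaction, and MIR_1792, MIR_1870, MIR_183 and MIR_86. Others were named after their values were seen. Members, lists and tests were chosen with earlier results of these data known. The scripts were tested on simulated data.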

Additional observations from a re-analysis of the deposited data

Results flagged for a closer look

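The time difference of the identifiers below went one way in both experiments at 3 mM and the opposite way in every experiment of another irrigation. Only the 38 named identifiers were searched for this. Some of them were named for a small interaction p or for the same sign in both experiments at 3 mM. The pattern is thus partly built in by the choice, and its share among all tested identifiers was not counted. None of these interactions passed in edgeR, and no group had the 4 libraries that a check for single outlying libraries needs.

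Against water, the interaction (time difference at 3 mM minus that after water, log2) was 0.93 for MIR_1251, 0.83 for MIR_4106 and 0.94 for MIR_5533 (edgeR adjusted p = 0.562 for each). It was -0.53 for MIR_5125 (edgeR adjusted p = 0.884) and 2.99 for MIR_4743 (edgeR adjusted p = 0.923, 95% interval -1.65 to 7.63). For MIR_4743 the single low 2 h library of experiment 1 sets the size.

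Against 0.1 mM, the interaction was -1.83 for MIR_10 (edgeR adjusted p = 0.615), 0.88 for MIR_482 (0.723), -1.93 for MIR_844 (0.581) and 1.51 for MIR_4510 (0.922). It was 0.42 for MIR_1251 (edgeR adjusted p = 0.804), -0.76 for MIR_5125 and -0.80 for MIR_4650 (0.568 for both). The 95% intervals of MIR_482 (-0.24 to 1.99), MIR_4510 (-1.53 to 4.55) and MIR_1251 (-0.23 to 1.07) include 0. Those of MIR_10, MIR_844, MIR_5125 and MIR_4650 do not. For MIR_10 and MIR_844 the difference at 3 mM came mostly from experiment 1, as given above. The mean time difference of MIR_10 was -0.65 at 3 mM and 1.49 at 0.1 mM, and that of MIR_844 was -0.86 and 0.82. For MIR_4510 the single low 2 h library of experiment 3 at 3 mM sets the size. Experiment 1 has no 24 h library at 0.1 mM in this test and experiment 2 none at 3 mM.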

How the results depend on the processing

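The count of identifiers called between 24 h and 2 h at 3 mM was 0 with RLE factors, plain CPM, a mean CPM of at least 100, all 11970 identifiers listed by at least 1 library, limma, no replicate block (29 at an unadjusted p under 0.05), all full libraries with or without the block, and 24 h replicate 2 added. DESeq2 with the block called 3. Leaving out 1 library gave 0 to 1 calls, the 1 being MIR_743 without 24 h replicate 3. With the block, leaving out a library of experiments 1 or 3 leaves no residual degrees of freedom, so values without a test were taken. For the interaction with water the count was 0 to 1 with 1 library left out (MIR_743 without 24 h replicate 3). For the interaction with 0.1 mM, DESeq2 called 1, and leaving out 1 library gave 0 to 2 calls. Without the block the edgeR count of each comparison stayed at 0. The difference in the share of the 10 most abundant identifiers turned to -1.26 points as a share of the library total and ranged from -2.30 to 3.94 with 1 library left out. The difference of MIR_320 ranged from -3.82 to 0.27 and that of MIR_1608 from -0.44 to 1.49 with 1 library left out. Of the 21 named identifiers described without a call, leaving out 1 library turned the sign of 0 to 6 with the block and 0 to 7 without it (7 without 24 h replicate 3), and of 0 to 4 of the 18 in the fit of all full libraries; of the other 17 it turned 0 with the block and 0 to 1 without it, and 0 to 1 of the 7 of these in the fit of all full libraries. All of these 17 had the same sign in experiments 1 and 3. With the block, leaving out a library of either experiment leaves the difference of the other, so their 0 was fixed in advance. The 21 include the identifiers chosen for the widest gaps between experiments, so the contrast with the 17 restates the choice. Where a left-out library leaves 1 at 24 h, the lone library is assumed to vary like the others. The cause of these shifts was not tested. The fits of all full libraries without the block or without each 3 mM library were chosen after the data were seen.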

Other observations

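Of the 9 estimates beyond 1 log2 unit, 2 belong to identifiers outside the rule for names, and they are given here after their values were seen. MIR_1182 had 281 and 193 CPM at 24 h, against 49.9, 77.8 and 214 CPM at 2 h, with 2.49 log2 units in experiment 1 and -0.15 in experiment 3. MIR_4443, of low abundance, had 4.14 and 3.26 CPM at 24 h, against at most 3.81 CPM at 2 h.

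Single libraries stood more than 2 log2 units from the median of the other 4 for few identifiers. In 24 h replicate 1 there were 2 such identifiers above and 1 below, and in 24 h replicate 3 there were 0 on either side. At 2 h, replicate 1 had 2 above and 2 below, replicate 2 had 0 above and 1 below, and replicate 3 had 2 above and 2 below.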
